A study of Mus musculus with 20 samples.

Results

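Neural and neural crest genes were followed as a set of 35 genes, chosen by name out of 55573 genes in the table, in embryoid body (EB) cultures of 4 mouse induced pluripotent stem cell (iPSC) lines. The set held 13 genes of early neuroectoderm and neural progenitors, 5 of the neural crest and dorsal neural tube, 3 neurogenic transcription factors, 12 genes of neurons and 2 of glia. The question put to them was how far the genes of this lineage were expressed in each line, how they moved over the days of EB culture, and whether lines without Nox4, an NADPH oxidase that produces hydrogen peroxide, differed from wild type lines. WT#1-4 and WT#20D-17 were wild type, and Nox4-/-#5-8 and Nox4-/-#5-23 carried the Nox4 knockout. The study describes its iPSC lines as clones made from mouse embryonic fibroblasts with retroviral Oct4, Sox2, Klf4 and c-Myc. By its methods, cells were kept on fibroblast feeder cells with leukaemia inhibitory factor. They were then grown as hanging drops without that factor and plated on gelatin. RNA of each line was sequenced on days 0, 3, 5, 7 and 14, with 1 library per line and day and thus 5 libraries per line. The study's text names 3 of the lines, with 15 libraries, and does not name WT#20D-17, so how that line was made is not stated there.

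In the embryo, neuroectoderm arises from epiblast that escapes mesoderm and endoderm signals, and it turns on SOX and PAX transcription factors, ZIC zinc finger factors and the intermediate filament nestin. Cells at the dorsal edge of the neural tube use Pax3, Pax7 and Msx1, and crest cells that leave it turn on Foxd3 and Sox10. Neurogenin and NeuroD factors then commit progenitors to the neuronal fate, in which cytoskeletal genes such as Map2, Tubb3 and Stmn2 are expressed strongly. EB culture without directed signals yields such cells beside derivatives of the other germ layers.

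Library totals were between 20294968 and 27708023 counts (median 23878854), so that the smallest amount taken as detected, 3 counts, was between 0.109 and 0.157 CPM, the count scaled to library size with edgeR's TMM factors. Nox4 itself had at most 2 counts in any Nox4-/- library, 0.149 to 0.874 CPM in WT#1-4 and 2.62 to 9.01 CPM in WT#20D-17. WT#20D-17 stood apart from the other lines in markers of other cell types. On day 0 it held Nanog, a core pluripotency factor, at 383 CPM, while Nanog did not exceed 1.03 CPM on any day in the other lines, including the iPSC stage. In those lines Pou5f1, the gene for Oct4, which the reprogramming vectors also carried, was between 1278 and 5760 CPM. Reads from the vectors and from the cells' own gene were not told apart. Zfp42 and Dppa3, further markers of naive pluripotency, were at or under 3 counts in every library of those lines. Endoderm markers summed to 404 to 2824 CPM in WT#20D-17 and to 19.9 to 131 CPM in the other lines, and fibroblast markers to 23.9 to 2999.9 CPM against 6.0 to 127 CPM. The part of these differences in the neural results was not tested, and results are given with each wild type line. In bulk RNA, fewer cells of a type and less RNA per cell cannot be told apart.

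Of the 35 genes, 34 exceeded 3 counts in at least 1 library, and Neurog1 did not. In at least 1 library, 29 genes reached 1 CPM, 20 reached 10 CPM and 6 reached 100 CPM. At 10 CPM, WT#1-4 had 12 genes, WT#20D-17 13, Nox4-/-#5-8 11 and Nox4-/-#5-23 13, but they differed in which genes these were. Levels were uneven across the steps of the lineage. Per kilobase of exon, the median over the 20 libraries was 138 CPM for Stmn2, 16.4 for Zic2, 14.2 for Ncam1 and 13.2 for Sox1, and it was 0 for Hes5, Neurog1 and Neurog2. Genes that define committed crest and neuroblasts were close to the detection limit. Sox10, a crest and glial factor, did not exceed 0.738 CPM in any library, Dcx, a microtubule protein of migrating neuroblasts, 0.63 CPM, Hes5, a Notch target in progenitors, 0.392 CPM, Neurog2 0.42 CPM and Gfap, the astrocyte filament, 0.451 CPM.

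**Figure D1:**
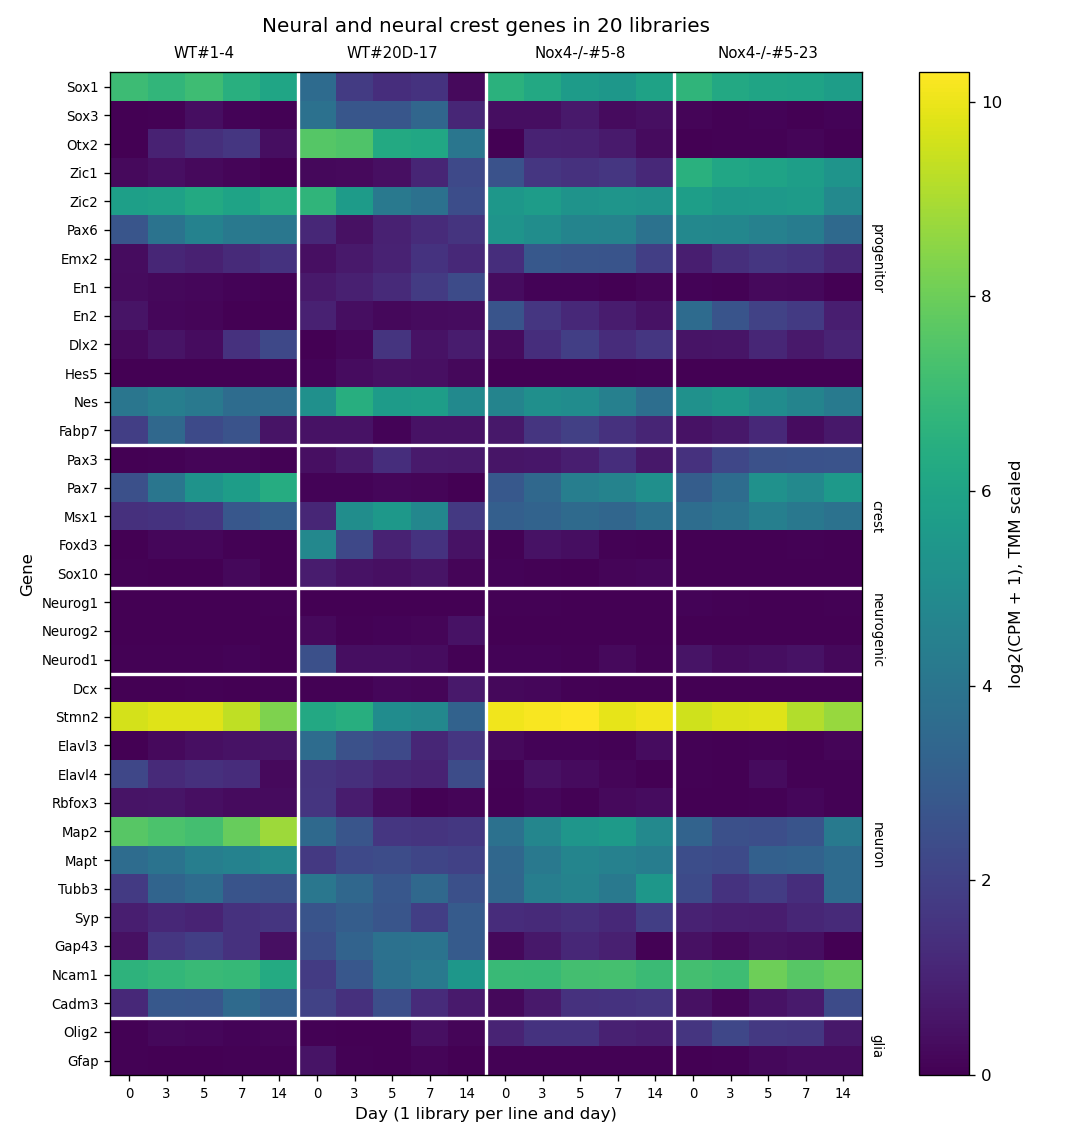
Level of each of the 35 genes (vertical axis, by class) in each of the 20 libraries (horizontal axis, days 0, 3, 5, 7 and 14 within each line), as log2(CPM + 1) by colour. Stmn2 is brighter in the other lines than in WT#20D-17, Otx2 is brighter in WT#20D-17 than in the other lines, and the neurogenic and glial classes are dark throughout.

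Among progenitor genes, the lines expressed different sets from day 0 on. Sox1, the earliest definitive neuroectoderm factor, was 132, 109, 138, 89.5 and 66.1 CPM in WT#1-4 on days 0, 3, 5, 7 and 14. It was 95.3, 72.9, 49.2, 43.0 and 60.1 CPM in Nox4-/-#5-8 and 107, 72.5, 64.5, 62.6 and 51.8 CPM in Nox4-/-#5-23. The WT#20D-17 libraries had 11.3, 2.45, 1.53, 1.82 and 0.21 CPM. Sox1 was thus highest in WT#1-4 on each day, and all libraries of WT#20D-17 were below all libraries of the other lines. Otx2, a homeobox factor of epiblast and forebrain, had the opposite distribution. It was 191, 174, 74.6, 69.6 and 15.4 CPM in WT#20D-17 and at most 2.12 CPM in the other lines, with at most 2 counts in any library of Nox4-/-#5-23. Sox3, a close relative of Sox1, was likewise between 1.15 and 13.5 CPM in WT#20D-17 and at most 0.612 CPM elsewhere.

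Zic1, a zinc finger factor of the dorsal neural tube, was mainly a gene of 1 Nox4-/- line. It was 91.7, 67.9, 61.6, 54.0 and 39.4 CPM in Nox4-/-#5-23. In Nox4-/-#5-8 it was 4.99, 2.06, 1.76, 2.07 and 1.3 CPM. It did not exceed 0.358 CPM in WT#1-4, and WT#20D-17 had 0.164 CPM on day 0 and 3.78 CPM on day 14. Its paralogue Zic2 showed no such split, with 54.5 to 83.2 CPM in WT#1-4, 37.8 to 50.1 CPM in Nox4-/-#5-8, 27.7 to 54.1 CPM in Nox4-/-#5-23 and 4.41 to 107 CPM in WT#20D-17. En2, a midbrain and hindbrain factor, was 11, 5.32, 3.14, 2.4 and 0.838 CPM in Nox4-/-#5-23 and 5.47, 2.1, 1.26, 0.722 and 0.417 CPM in Nox4-/-#5-8, and stayed under 1 CPM in both wild type lines.

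Pax6, a progenitor factor of forebrain and eye, was 5.66, 14.1, 22.4, 16.8 and 16.0 CPM in WT#1-4. It was 39.8, 31.8, 24.4, 23.3 and 13.9 CPM in Nox4-/-#5-8 and 26.9, 26.6, 21.9, 19.0 and 10.5 CPM in Nox4-/-#5-23, while WT#20D-17 did not exceed 1.94 CPM. The Nox4-/- lines were above WT#1-4 on day 0 and below it on day 14. Nes, the gene for nestin, was 15.6, 20.2, 17.1, 11.4 and 11.9 CPM in WT#1-4, and 34.8, 86.3, 49.6, 52.1 and 28.7 CPM in WT#20D-17. The Nox4-/-#5-8 libraries had 24.1, 34.1, 30.9, 21.6 and 12.3 CPM and the Nox4-/-#5-23 libraries 35.8, 43.1, 30.9, 23.9 and 17.4 CPM, above WT#1-4 on each day. Each line had its highest Nes value on day 3. The other progenitor genes were low. Emx2, a cortical factor, did not exceed 6.08 CPM, Dlx2, of interneuron progenitors, 3.72 CPM, En1, the paralogue of En2, 4.09 CPM, and Fabp7, of radial glia, 10.2 CPM, reached in WT#1-4 on day 3.

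The promoters of Sox1 and Zic1 are shown as those of progenitor factors whose levels set single lines apart. They are windows of 300 bases that hold the RefSeq start, mostly upstream of it, on the gene's strand of GRCm38.p6, at chr8:12395269-12395568 on the plus strand for Sox1 and chr9:91365719-91366018 on the minus strand for Zic1. Capitals mark 4 motifs on either strand, which are TATAAA (the TATA box), CCAAT (the CCAAT box), GGGCGG (the GC box, read by Sp1) and CAGCTG (an E-box, read by neurogenic factors).
Sox1: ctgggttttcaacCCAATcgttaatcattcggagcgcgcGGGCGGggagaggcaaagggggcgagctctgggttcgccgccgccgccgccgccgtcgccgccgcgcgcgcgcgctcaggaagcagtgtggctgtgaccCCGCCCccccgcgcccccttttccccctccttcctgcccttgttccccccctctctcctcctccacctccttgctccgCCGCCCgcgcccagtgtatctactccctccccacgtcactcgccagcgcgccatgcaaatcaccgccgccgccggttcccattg
Zic1: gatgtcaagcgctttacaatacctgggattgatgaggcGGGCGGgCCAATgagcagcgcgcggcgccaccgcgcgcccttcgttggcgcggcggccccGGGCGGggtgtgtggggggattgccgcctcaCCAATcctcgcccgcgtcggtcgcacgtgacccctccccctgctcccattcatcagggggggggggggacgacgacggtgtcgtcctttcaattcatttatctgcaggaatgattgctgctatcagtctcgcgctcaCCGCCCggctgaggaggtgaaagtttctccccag
Both windows are rich in CG, with 37 such pairs in Sox1 and 31 in Zic1, where the median of 32851 RefSeq windows was 7 and that of the 34 windows found for 26 of the 35 genes was 18. Sox1 held 1 CCAAT and 3 GGGCGG, and Zic1 held 2 CCAAT and 3 GGGCGG. Of all windows, 37.4% held CCAAT, 35.7% GGGCGG, 16.3% CAGCTG and 13.6% TATAAA. These matches describe letters and say nothing of binding in the EB cells.

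Among crest and dorsal neural tube genes, Pax7 was the most abundant and the most regular over time. It was 4.79, 15.6, 37.6, 51.6 and 83.2 CPM in WT#1-4 on days 0, 3, 5, 7 and 14. It was 6.07, 10.2, 19.9, 23.1 and 33.9 CPM in Nox4-/-#5-8 and 7.17, 11.6, 35.9, 28 and 45.3 CPM in Nox4-/-#5-23. In WT#20D-17 no library had more than 3 counts. Pax7 was higher on every later day than on day 0 in the 3 lines that expressed it, and WT#1-4 had the highest value on every day but day 0. Its paralogue Pax3 was much lower and did not follow it across the lines. Pax3 was 1.78, 3.57, 4.88, 5.02 and 5.18 CPM in Nox4-/-#5-23, 0.479 to 1.54 CPM in Nox4-/-#5-8, 0.328 to 1.53 CPM in WT#20D-17 and at most 3 counts in every library of WT#1-4.

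Msx1, a target of BMP signals at the neural plate border, was 1.71, 1.87, 2.16, 5.99 and 7.39 CPM in WT#1-4. It was 7.59 to 13.1 CPM in Nox4-/-#5-8 and 11.7 to 20.7 CPM in Nox4-/-#5-23. The WT#20D-17 libraries had 1.15, 32.2, 44.5, 26.1 and 2.31 CPM, so that the highest and the lowest values of the gene were both in that line. Msx1 is also expressed in mesoderm, whose markers summed to 51.8 to 367 CPM in WT#20D-17 and to 3.23 to 36.9 CPM in the other lines, and their part was not tested. Foxd3, a factor of pluripotent cells as well as of early crest, was 26.9, 3.7, 1.0, 1.86 and 0.42 CPM in WT#20D-17 and at most 0.42 CPM in the other lines. Its day 0 value in WT#20D-17 stood beside Nanog at 383 CPM in the same library.

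The Pax7 promoter, at chr4:139832919-139833218 on the minus strand, is shown as that of the gene with the clearest course, with the same 4 motifs in capitals.
Pax7: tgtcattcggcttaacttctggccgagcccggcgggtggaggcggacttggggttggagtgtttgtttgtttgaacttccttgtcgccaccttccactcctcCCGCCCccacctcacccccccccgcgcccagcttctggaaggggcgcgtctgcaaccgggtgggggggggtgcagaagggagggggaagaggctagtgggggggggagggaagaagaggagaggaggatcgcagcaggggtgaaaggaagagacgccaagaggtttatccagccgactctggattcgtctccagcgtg
It held 17 CG pairs and 1 GGGCGG, and no match to the other motifs. The study's own RT-PCR oligonucleotides for Pax3 and Zic1, which were among the genes that differed between the Nox4-/- lines, are shown as designed sequences. As a pair, each matched 2 of 3 annotated transcripts of its gene exactly, and no other gene was matched by both oligonucleotides.
Pax3 forward: aacaagctggagccaatcaactg
Pax3 reverse: ctgaggtctgtggacggtgcta
Zic1 forward: cttttccctgcccgtttc
Zic1 reverse: ctcgaactcgcacttgaagg
The expected products were 170 bp for Pax3 and 110 bp for Zic1. The study's pairs for other members were checked the same way. The Nes pair matched 3 of 3 transcripts, and the Map2 pair 8 of 24, with products of 146 to 4229 bp. The Otx2 pair matched 0 of 11, as its forward oligonucleotide matched 0 of them exactly.

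Neuronal genes did not move as 1 class. Stmn2, which encodes a tubulin-binding protein of growing axons, was the most abundant of the 35 genes, at 797, 881, 890.5, 627 and 320.1 CPM in WT#1-4. It was 1091, 1175, 1259, 965 and 1086 CPM in Nox4-/-#5-8 and 751, 859, 889.6, 546 and 412 CPM in Nox4-/-#5-23. The WT#20D-17 libraries had 72.4, 87.3, 30.9, 26.9 and 8.45 CPM. It was thus high on day 0, in the iPSC stage, in the 3 lines in which Nanog was near 0. Ncam1, a neural cell adhesion molecule that other tissues also express, shared this distribution, with 77.6 to 126 CPM in WT#1-4, 122 to 152 CPM in Nox4-/-#5-8 and 138 to 257 CPM in Nox4-/-#5-23. In WT#20D-17 Ncam1 was 2.42, 6.03, 12.9, 16.8 and 42.5 CPM, higher on each later day than on the day before.

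Map2, a microtubule protein of dendrites, was a gene of WT#1-4, where it was 196, 168, 148, 239 and 443 CPM, with a 95% Wilson interval on day 14 of 434 to 453 CPM. It was 13.4, 25.5, 41.3, 48.0 and 28 CPM in Nox4-/-#5-8 and 8.7, 4.72, 4.61, 5.33 and 17.8 CPM in Nox4-/-#5-23. The WT#20D-17 libraries had 10.4, 5.6, 2.09, 1.91 and 2.15 CPM. All WT#1-4 libraries were above all libraries of the other lines, wild type WT#20D-17 included. Mapt, the gene for tau, was 11.5, 14, 20.0, 22.4 and 26.9 CPM in WT#1-4, 9.74 to 24.8 CPM in Nox4-/-#5-8, 4.03 to 11 CPM in Nox4-/-#5-23 and 2.3 to 4.32 CPM in WT#20D-17.

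Tubb3, the gene for βIII-tubulin and the study's ectoderm stain, was 9.5, 20.1, 23.5, 17.1 and 43.0 CPM in Nox4-/-#5-8. It was 2.32, 8.9, 11.5, 5.35 and 4.91 CPM in WT#1-4, 16.1, 9.82, 5.93, 10.3 and 4.78 CPM in WT#20D-17, and 3.98, 1.88, 2.53, 1.51 and 11.3 CPM in Nox4-/-#5-23. The ranges of all lines overlapped for Tubb3. Another annotated gene, Gm20388, overlaps it on the same strand and had up to 4878 counts where Tubb3 had up to 928, so the division of reads between them makes these values uncertain. Cadm3, an adhesion molecule of neurons, was 1.29, 6.16, 5.93, 10.7 and 7.73 CPM in WT#1-4, 0.16 to 2.04 CPM in Nox4-/-#5-8, 0.0917 to 4.16 CPM in Nox4-/-#5-23 and 0.682 to 4.62 CPM in WT#20D-17. Aim2, which lies antisense to Cadm3, had up to 412 counts. Syp, a synaptic vesicle protein, and Gap43, a growth cone protein, were highest in WT#20D-17, at 2.71 to 7.24 CPM and 4.59 to 14 CPM. The RNA-binding proteins Elavl3, Elavl4 and Rbfox3 did not exceed 0.378 CPM in any Nox4-/- library.

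The Map2 promoter, at chr1:66175079-66175378 on the plus strand, is shown because Map2 had the largest difference between the wild type lines among neuronal genes.
Map2: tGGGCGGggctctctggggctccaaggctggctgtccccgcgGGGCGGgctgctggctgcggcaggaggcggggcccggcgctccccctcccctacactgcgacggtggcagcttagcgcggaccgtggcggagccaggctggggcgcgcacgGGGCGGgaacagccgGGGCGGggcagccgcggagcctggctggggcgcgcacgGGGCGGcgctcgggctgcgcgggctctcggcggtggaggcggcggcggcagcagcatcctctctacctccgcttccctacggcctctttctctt
It held 37 CG pairs and 5 GGGCGG, and none of the other motifs. Of the 3 neurogenic factors, Neurod1 alone passed 1 CPM, at 4.71 CPM in WT#20D-17 on day 0, and it did not exceed 0.446 CPM in any other line. Olig2, a factor of motor neuron and oligodendrocyte progenitors, was 1.04, 1.85, 1.84, 0.915 and 0.835 CPM in Nox4-/-#5-8 and 2.01, 3.53, 2.31, 2.18 and 0.583 CPM in Nox4-/-#5-23, and at most 0.355 CPM in both wild type lines.

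**Figure D2:**
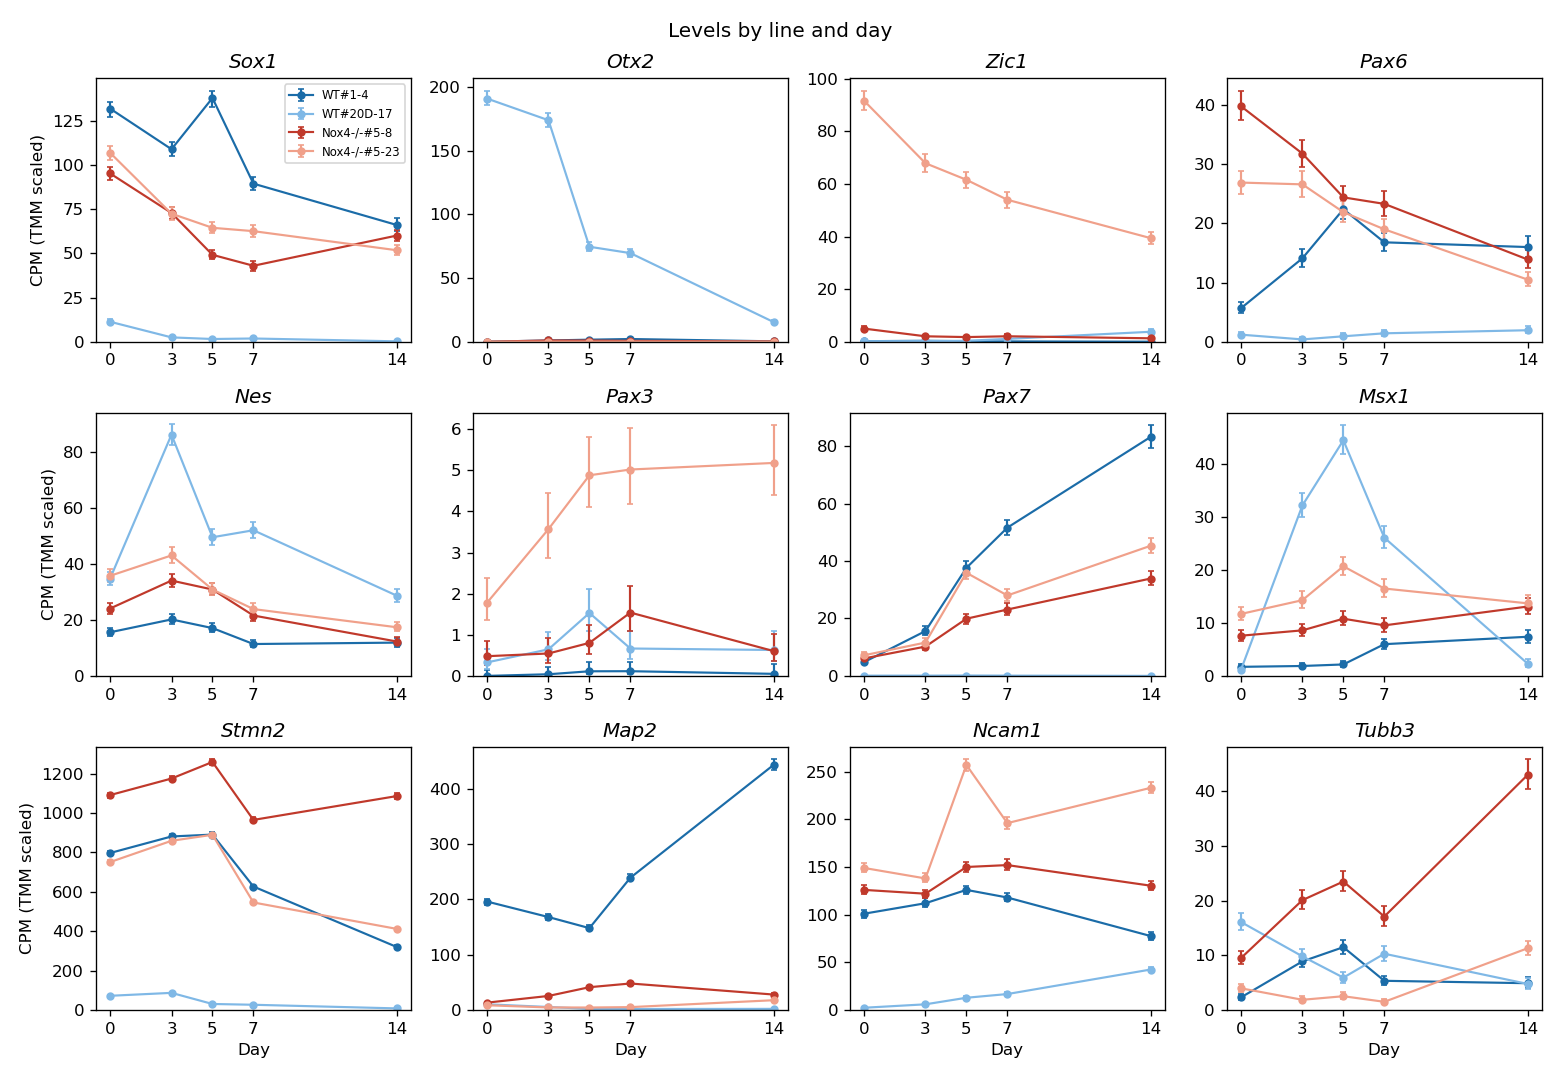
CPM of 12 genes (vertical axes, linear from 0) against day (horizontal axes), with 1 line of points per cell line and bars for the 95% Wilson interval of counting error. Pax7 climbs in the 3 lines other than WT#20D-17, Map2 is set apart in WT#1-4, and Zic1 in Nox4-/-#5-23.

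Genotype was compared first between the 10 Nox4-/- libraries and the 5 libraries of WT#1-4 with all days pooled, by edgeR's exact test at a false discovery rate (FDR) under 0.01 over 33860 genes. Of the 35 genes, 11 were called, 5 higher in the Nox4-/- cells, led by Zic1 and Pax3, and 6 lower, led by Elavl4 and Map2. Of all genes tested, 5.62% were called, 1.65% higher and 3.97% lower. The median log2 fold change of the 35 genes was 0.0, as over all genes. The 5 higher genes were Zic1 (7.54 on the log2 scale, FDR = 1.84e-06), Pax3 (5.16, FDR = 7.81e-07), En2 (4.5, FDR = 0.000178), Olig2 (3.97, FDR = 3.02e-09) and Msx1 (1.73, FDR = 0.000506). Pax3 in WT#1-4 rests on 8 counts over its 5 libraries, against which the pooled ratio was 38.7 with an exact 95% interval of 19.5 to 90.0 for counting error. The mean of Zic1 over the Nox4-/- libraries, 32.7 CPM, combined 62.9 CPM in Nox4-/-#5-23 and 2.43 CPM in Nox4-/-#5-8.

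The 6 lower genes were Map2 (-3.6, FDR = 7.48e-11), Elavl4 (-3.86, FDR = 2.27e-06), Cadm3 (-2.38, FDR = 0.00498), Rbfox3 (-2.08, FDR = 0.00943), Fabp7 (-1.99, FDR = 0.00844) and Zic2 (-0.64, FDR = 0.00825). The mean of Map2 was 239 CPM in WT#1-4 and 19.7 CPM in the Nox4-/- lines. By class, 4 of 12 neuronal genes were called, all lower, with a median log2 fold change of -1.09 for the class. Of the 5 crest genes, 2 were called, both higher, and of the 13 progenitor genes 2 were called higher and 2 lower. Further crest genes that were called in the same test, given below, were all lower. Genes with high counts that did not pass were Nes, with means of 15.2 CPM in WT#1-4 and 27.4 CPM in the Nox4-/- lines (FDR = 0.0381), Sox1 with 107 and 67.9 CPM (FDR = 0.0535), Ncam1 with 107 and 165 CPM (FDR = 0.0505), Pax7 with 38.6 and 22.1 CPM (FDR = 0.492) and Stmn2 with 703 and 903 CPM (FDR = 0.67). The number called was between 6 and 13 when 1 day or 1 Nox4-/- line was left out, lowest without day 3 and highest without Nox4-/-#5-8. Of all genes, 3.29% to 5.89% were called in these fits, with 3.76% without day 3 and 5.89% without Nox4-/-#5-8. Zic1, En2, Pax3, Olig2, Elavl4 and Map2 were called in each of these fits.

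The libraries themselves separated less often. Every Nox4-/- library lay above every WT#1-4 library for Zic1, Pax3, Msx1 and Olig2, and below it for Zic2 and Map2, which makes 6 of 35 genes where 3.35% of all genes had no overlap. With both wild type lines, Olig2 alone was without overlap, above in every Nox4-/- library, where 0.591% of all genes were above and 1.45% were without overlap in either direction.

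Against the other wild type line, WT#20D-17, the same test called 24 of the 35 genes, 10 higher and 14 lower in the Nox4-/- lines, where 25.8% of all genes were called, 9.83% higher and 16.0% lower. Of the 35 genes, 5 were called in the same direction against each wild type line, where 3.02% of all genes were. These were Zic1, En2 and Olig2, higher in the Nox4-/- lines, and Elavl4 and Rbfox3, lower. Elavl4 was close to the detection limit in the Nox4-/- lines, with medians of 0.0963 CPM in Nox4-/-#5-8 and 0.0372 CPM in Nox4-/-#5-23. It reached at most 0.378 CPM there, which overlapped the 0.198 to 3.53 CPM of WT#1-4, and was 0.977 to 4.25 CPM in WT#20D-17. Rbfox3 was close to the detection limit, at 0.228 to 0.516 CPM in WT#1-4 and 0.0444 to 1.97 CPM in WT#20D-17. In the Nox4-/- lines it was at most 0.278 CPM, so that the ranges overlapped. Its call against WT#1-4 was absent with DESeq2 and with the quasi-likelihood test, with or without day as a covariate. Map2 was called in opposite directions, since its mean of 19.7 CPM in the Nox4-/- lines lay between 4.42 CPM in WT#20D-17 and 239 CPM in WT#1-4. Sox1 (4.29), Pax6 (4.35), Stmn2 (4.32), Ncam1 (3.36) and Mapt (1.93) were higher in the Nox4-/- lines than in WT#20D-17 on the log2 scale and did not pass against WT#1-4. Pax7 had 9 counts over the libraries of WT#20D-17, and the pooled ratio of the Nox4-/- lines to it was 277 (exact interval 146 to 606). Otx2 (-8.45), Foxd3 (-6.22), Sox3 (-5.06), Elavl3 (-5.67), Gap43 (-4.51) and Syp (-2.03) were lower than in WT#20D-17.

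With both wild type lines as the reference, the exact test over 20 libraries called 12 genes, 4 higher and 8 lower, where 12.1% of all genes were called, 2.50% higher and 9.61% lower. Against WT#1-4 with day as a covariate, the quasi-likelihood test called 14 genes, among them Nes and Ncam1 as higher and Sox1 and Gap43 as lower, where 8.04% of all genes were called, 2.82% higher and 5.23% lower. All of these tests treat days of 1 line as replicates. With the line as the unit, that is 2 lines against 2, edgeR's quasi-likelihood test called 0 of the 35 genes and 0 of 33860, and 8 of the 35 had an unadjusted p under 0.05. An exact permutation of 2 lines against 2 cannot give a p below 0.333.

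**Figure D3:**
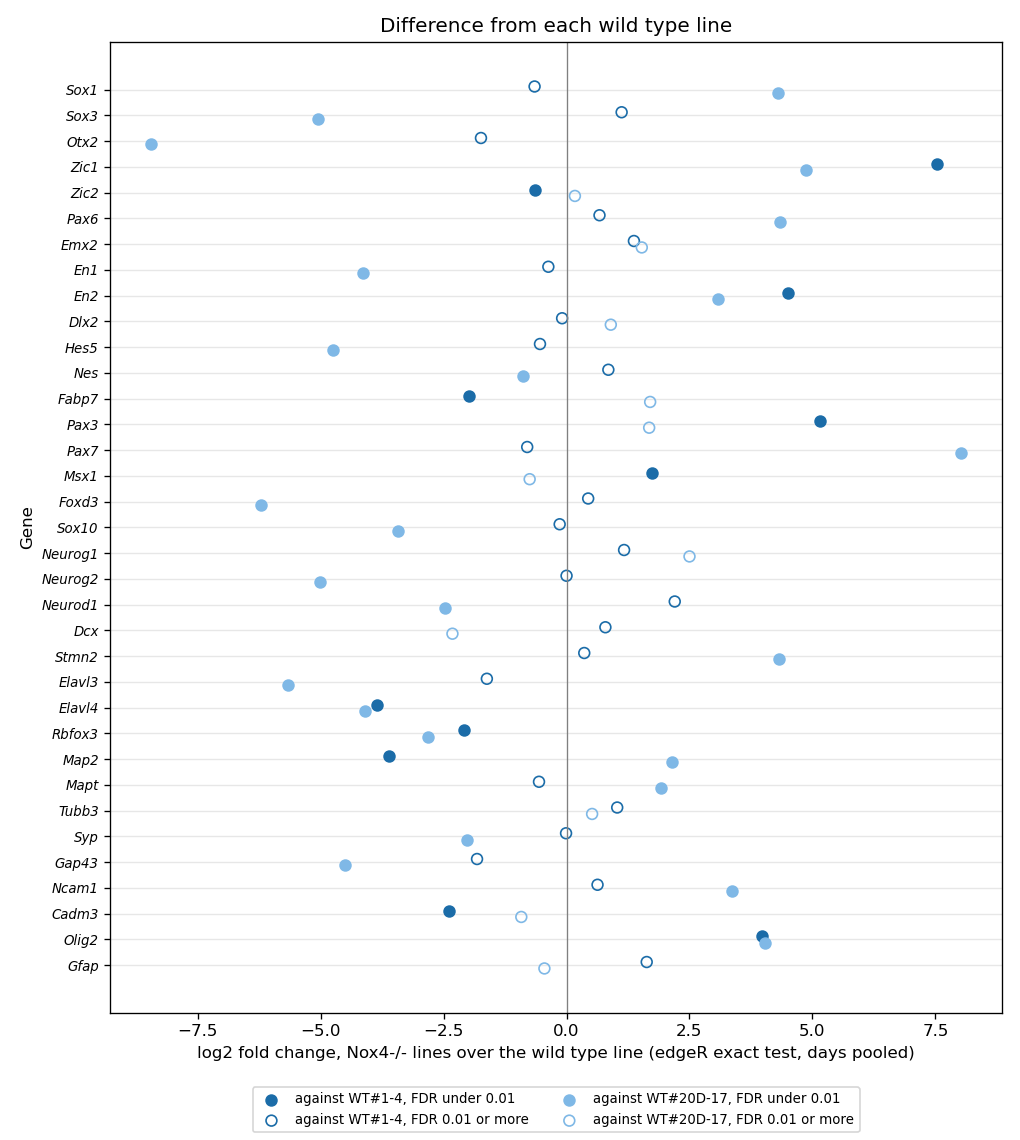
Log2 fold change of the Nox4-/- lines (horizontal axis) over WT#1-4 and over WT#20D-17 (a colour each) for each gene (vertical axis), filled where the FDR of edgeR's exact test was under 0.01. The 5 genes filled on the same side for both lines are Zic1, En2, Olig2, Elavl4 and Rbfox3, and Map2 is filled on opposite sides.

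Differences between lines of 1 genotype were measured with the same test. Between the wild type lines, 21 of the 35 genes were called, 13 higher and 8 lower in WT#20D-17, where 17.7% of all genes were called, 9.96% higher and 7.78% lower. Lower in WT#20D-17 were Map2 (-5.76, FDR = 5.51e-19), Sox1 (-4.95, FDR = 2.05e-08), Stmn2 (-3.97, FDR = 3.67e-10), Pax6 (-3.69, FDR = 1.02e-10), Pax7, Fabp7, Ncam1 and Mapt. Higher were, among others, Otx2 (6.71, FDR = 3.01e-09), Foxd3 (6.65, FDR = 1.83e-05), Sox3 (6.17, FDR = 6.24e-10), Elavl3 (4.04, FDR = 1.32e-05) and Nes (1.71, FDR = 1e-05). Between the Nox4-/- lines, 6 genes were called where 2.19% of all genes were, 1.05% higher and 1.14% lower in Nox4-/-#5-23. Zic1 (4.69, FDR = 1.78e-26) and Pax3 (2.36, FDR = 6.3e-05) were higher in Nox4-/-#5-23, and Map2 (-1.92, FDR = 0.00175), Mapt (-1.38, FDR = 0.00685), Tubb3 (-2.41, FDR = 0.00239) and Sox3 (-2.42, FDR = 0.00248) were lower. Map2 and Pax3 thus differed within each genotype as well as between the Nox4-/- lines and WT#1-4.

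The course over days was tested within lines, with edgeR's quasi-likelihood test, day as a factor and the line as a block, over 17827 genes. Of the 35 genes, 28 passed the filter on low counts, which leaves out Sox10, the neurogenic factors and others near the detection limit. The test over all days called 3 of them, Pax7 (FDR = 0.000236), En2 (FDR = 0.00042) and Nes (FDR = 0.00195), where 18.0% of all genes were called. Between day 0 and day 14, 6 genes were called, where 28.8% of all genes were, 14.8% higher and 14% lower. Higher on day 14 were Pax7 by 2.87 ± 0.388 (SE) on the log2 scale (FDR = 3.23e-05), Dlx2 by 3.06 ± 0.826 (FDR = 0.00713), Emx2 by 1.56 ± 0.415 (FDR = 0.00648) and Mapt by 1.04 ± 0.24 (FDR = 0.0025). En2 fell by 3.4 ± 0.538 (FDR = 0.000122) and Sox1 fell by 1.7 ± 0.459 (FDR = 0.00702). Emx2, Dlx2 and Mapt were above their day 0 value in 4 of 4 lines, Pax7 in 3 of 4, and En2 and Sox1 were below it in 4 of 4. Pax7 had passed by day 5 (2.17 ± 0.381, FDR = 0.00309), as the only one of the 28 genes, where 2.55% of all genes were called. On day 7, Pax7 (2.26 ± 0.382, FDR = 0.000816) and Emx2 (1.85 ± 0.41, FDR = 0.00432) were higher and En2 was lower (-2.71 ± 0.49, FDR = 0.00128) than on day 0, where 11.9% of all genes were called, 6.47% higher and 5.39% lower. Between day 7 and day 14 the same test called 0 of the 28 genes, with 3 at an unadjusted p under 0.05, where 0.0112% of all genes were called, 0.00561% in each direction.

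The number of genes called over the days rested on single lines. Without Nox4-/-#5-8 or without Nox4-/-#5-23 the test over all days called 0 genes (10 and 9 with an unadjusted p under 0.05), and without WT#20D-17 it called 5. The share of all genes called moved the same way, at 5.98%, 3.44% and 23.4% in these fits against 18.0% with 4 lines. On day 14 against day 0, 2 genes were called without WT#1-4, 3 without Nox4-/-#5-8 and 2 without Nox4-/-#5-23, with Pax7 and En2 in each of these, and 9 without WT#20D-17. Of all genes, 18.1%, 18.7%, 14.1% and 34.3% were called in these fits. In the 3 lines without WT#20D-17, Zic1 was lower on day 14 (-1.55, FDR = 0.00202) where its value over 4 lines was 0.05 (FDR = 0.964), and Nes was lower (-0.76, FDR = 0.00534). In the Nox4-/- lines alone, day 14 against day 0 called 5 of 22 genes tested, Pax7 higher (2.58 ± 0.218, FDR = 0.000104) and En2 (-3.71 ± 0.354, FDR = 0.00016), Zic1 (-1.52 ± 0.245, FDR = 0.00157), Pax6 (-1.43 ± 0.171, FDR = 0.000407) and Nes (-0.99 ± 0.19, FDR = 0.00358) lower, where 26.5% of all genes were called. In the wild type lines alone the same quasi-likelihood test called 0 of 28 genes and 0 of 18512, and 7 of the 28 had an unadjusted p under 0.05.

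**Figure D4:**
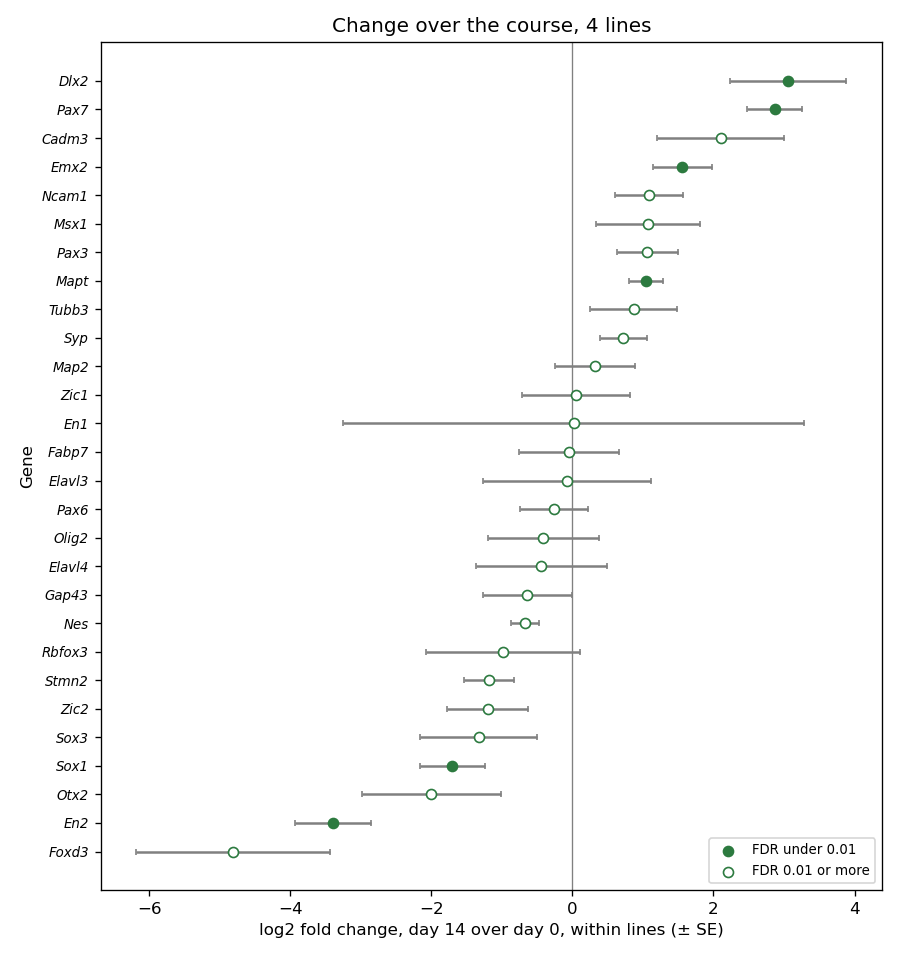
Log2 fold change of day 14 over day 0 within lines (horizontal axis, with SE) for the 28 genes tested (vertical axis), filled where the FDR was under 0.01. The 4 filled points above 0 are Dlx2, Pax7, Emx2 and Mapt, and the 2 below are Sox1 and En2.

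Whether the course differed between genotypes was asked with an interaction term for genotype by day, added to the same model. Of 30 genes tested 0 were called, where 0.0104% of 19240 genes were, and 2 of the 30, Pax6 and Rbfox3, had an unadjusted p under 0.05. DESeq2 with the same model also called 0, with 4 at an unadjusted p under 0.05. Without WT#1-4, so that WT#20D-17 stood alone for the wild type, 7 genes were called, namely Sox1, Otx2, Zic2, Zic1, Pax6, Msx1 and Ncam1, where 3.34% of all genes were called. Neither this result nor the one over 4 lines shows whether the courses of the genotypes were alike.

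A further 66 neural and crest genes, listed by role, were read in the same fits. Against WT#1-4, 14 of the 66 were called, 4 higher and 10 lower in the Nox4-/- lines, beside the 5.62% of all genes. Sox2, a progenitor and pluripotency factor that the reprogramming vectors also carried, had means of 138 CPM in the Nox4-/- lines and 14.3 CPM in WT#1-4 (FDR = 5.74e-07). Lower were neuronal genes such as Nhlh1, a helix-loop-helix factor of newborn neurons (-4.77, FDR = 2.49e-05) and Ebf3 (-2.35, FDR = 0.000213). The size for Nhlh1 rests largely on 1 library of WT#1-4, at 42.5 CPM where the median of that line was 2.7 CPM. Nhlh1 was at most 2.23 CPM in Nox4-/-#5-8 and 1.31 CPM in Nox4-/-#5-23. The neural tube factor Irx3 was also lower (-2.5, FDR = 9.41e-22). Of the 16 crest genes among the 66, 0 were called higher and 4 lower (Snai2, Sox8, Dlx5 and Ets1). Their median log2 fold change was -0.92. The 5 crest genes above went the other way, with 2 called higher and a median of 0.44. Between the wild type lines 39 of the 66 were called, 26 higher and 13 lower in WT#20D-17, beside 17.7% of all genes. Over the days, 11 of 52 tested were called on day 14 against day 0, beside 28.8% of all genes, 4 higher, among them Nhlh1 (4.41, FDR = 0.000282) and Erbb3, the neuregulin receptor of crest and glia (2.03, FDR = 0.000733), and 7 lower, among them Pou3f1 (-3.92, FDR = 6.83e-05) and Sox2 (-2.48, FDR = 0.00553).

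Summed levels of the classes set these genes beside markers of other cell types. The 12 neuronal genes summed to 884 to 1209 CPM in WT#1-4, 1209.5 to 1504 CPM in Nox4-/-#5-8, 691 to 1164 CPM in Nox4-/-#5-23 and 79.7 to 138 CPM in WT#20D-17. These sums follow a few abundant genes (Stmn2, Ncam1 and Map2) and not the class. Between the wild type lines, 3 of the 12 neuronal genes, Elavl3, Syp and Gap43, were higher in WT#20D-17 and 4 were lower, with a median log2 fold change of 0.36. Of 25 further neuronal genes, 11 were higher in WT#20D-17, among them Nefl, a neurofilament, at 9.29 to 27.5 CPM there and at most 5.39 CPM in the other lines, and 7 were lower, with a median of 2.1. The 13 progenitor genes summed to 62.5 to 361 CPM in WT#20D-17, 184 to 259.9 CPM in WT#1-4, 133 to 215 CPM in Nox4-/-#5-8 and 151 to 329 CPM in Nox4-/-#5-23, so that these ranges overlapped. The 5 crest genes were 6.53 CPM on day 0 and 90.7 CPM on day 14 in WT#1-4, 14.3 and 47.7 CPM in Nox4-/-#5-8, 20.7 and 64.2 CPM in Nox4-/-#5-23, and 29.2 and 3.46 CPM in WT#20D-17. Single genes made up most of these changes, and not the class. On day 14 Pax7 alone was 83.2 CPM in WT#1-4, 33.9 CPM in Nox4-/-#5-8 and 45.3 CPM in Nox4-/-#5-23. Foxd3, also a factor of pluripotent cells, alone was 26.9 CPM in WT#20D-17 on day 0. Endoderm markers in WT#20D-17 had a median of 1961 CPM, above the median of each neural class in that line.

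**Figure D5:**
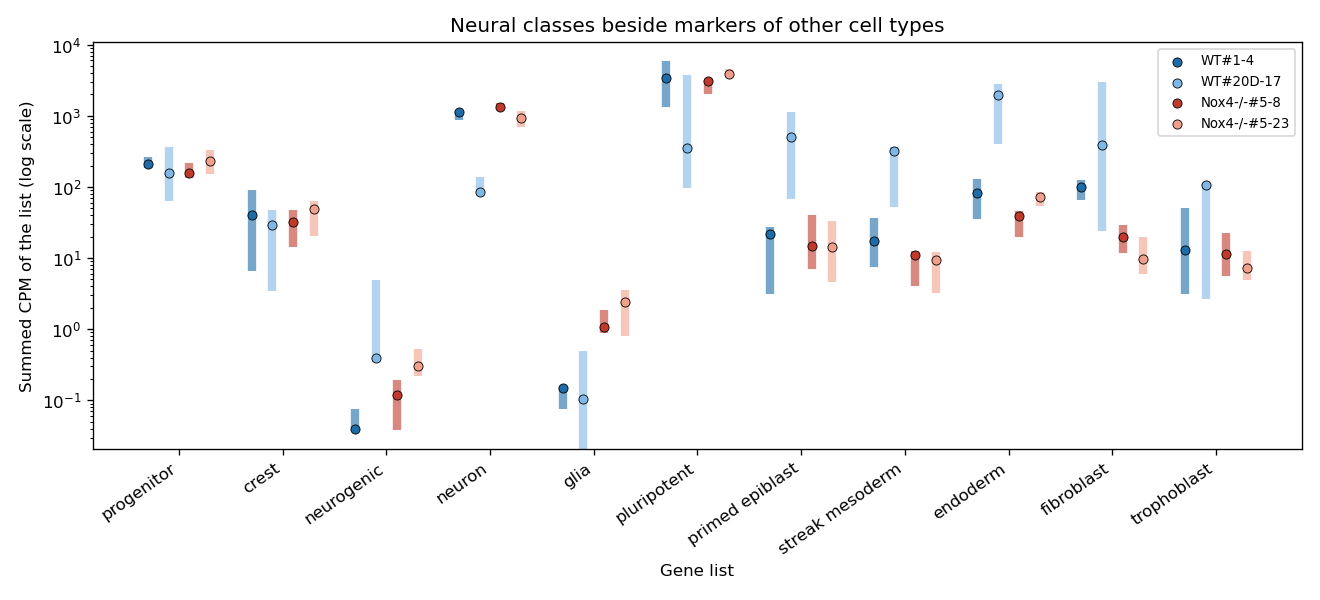
Summed CPM of each gene list (horizontal axis) on a log scale (vertical axis), with the median (point) and the range (bar) over the 5 days of each line; a sum of 0 lies below the axis. WT#20D-17 has the lowest neuronal sums, which follow Stmn2, Ncam1 and Map2, and the highest endoderm and mesoderm sums of the 4 lines.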

How the data were processed

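The authors sequenced stranded mRNA libraries as paired reads, aligned them to mm10 with STAR 2.6.0c and deposited RSEM 1.3.1 expected counts per Ensembl gene, a unit that need not be whole and is not normalized. The strand setting of the counting is not given in the sources used here. The expected counts were rounded to whole numbers, and symbols and coordinates were taken from GENCODE M21 (55394 of 55573 identifiers found). Groups came from the sample labels. One label text lists day 10 where titles and other fields give day 14, which was used. CPM was scaled with TMM factors. Tests ran in R 4.3.3 with edgeR 4.0.16 and its dependency limma 3.58.1, or with DESeq2 1.42.0 as an alternative, at a Benjamini-Hochberg FDR under 0.01 over all genes tested.

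Genotype and line differences used edgeR's exact test with the days of a line pooled as replicates. For 1 line against another, p-values thus measure the spread between days of 1 line. Where a group held 2 lines, that spread was mixed with the difference between the 2 lines, and days still counted as replicates. The course and the interaction used edgeR's quasi-likelihood test with the line as a replicate block, since libraries of a line come from the same cells. The difference between the 2 lines of a genotype was correlated between days with r of 0.551 to 0.927 in wild type and 0.415 to 0.881 in Nox4-/- cells, over 14579 genes. Wilson 95% intervals and the limit of 3 counts cover counting error only. By rule, values in every library were given for the members named in the study's text or primer list (Nes, Pax3, Otx2, Zic1, Map2, Tubb3, Cadm3) and for up to 5 a class, by highest CPM, that passed the day or genotype test and reached 10 CPM. Values given in every library for other members, and the other neural genes named, were chosen after they were seen. The members and the other gene lists were chosen with earlier results of these data known. The exact and quasi-likelihood genotype tests, the tests over all days and of day 14, and the interaction were run on simulated counts. The other statistics were not. The simulated counts held no differences between lines, so they could not show the effect of counting days of a line as replicates. Alternatives are given at the end.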

Additional observations from a re-analysis of the deposited data

Results flagged for a closer look

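Pax6 stood out because its day 14 value lay above its day 0 value in both wild type lines and below it in both Nox4-/- lines. On the log2(CPM + 1) scale, day 14 minus day 0 was 1.35 in WT#1-4 and 0.42 in WT#20D-17, and -1.45 in Nox4-/-#5-8 and -1.28 in Nox4-/-#5-23, so that the mean of the Nox4-/- lines minus that of the wild type lines was -2.25. In WT#20D-17 the values were 1.19 and 1.94 CPM with overlapping 95% Wilson intervals (0.828 to 1.71 and 1.41 to 2.68 CPM), so that the wild type direction rests on WT#1-4. The interaction of genotype and day for Pax6 in edgeR's quasi-likelihood test had an unadjusted p of 0.0188 and an FDR of 0.583 over all genes, which does not pass. The FDR was 0.0491 without WT#20D-17 and 0.00874 without WT#1-4. It was 1.0 without Nox4-/-#5-8 (unadjusted p = 0.292) and 1.0 without Nox4-/-#5-23 (unadjusted p = 0.247), and between 0.539 and 1.0 when 1 day was left out.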

How the results depend on the processing

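The 11 genes called against WT#1-4 became 7 at an FDR under 0.001 (3.61% of all genes). The quasi-likelihood test with days pooled also called 7 (3.63%). With a filter on low counts before the exact test, 9 of 22 genes were called, beside 9.95% of all genes that passed it. Against WT#20D-17 instead, 24 were called (25.8%), and with the line as the unit 0 (0%). When 1 day or 1 Nox4-/- line was left out, 6 to 13 were called (3.29% to 5.89%). The 3 genes called over all days became 10 at an FDR under 0.05, 8 with DESeq2 and 0 with no replicate block (29.6%, 15.1% and 3.61% of all genes). They became 0 to 5 when 1 line or day was left out (3.44% to 23.4% of all genes). The 6 genes called on day 14 became 0 with no replicate block (9.85% of all genes) and 2 to 9 in leave-one-out fits. The 0 genes called for the interaction became 0 to 7 in such fits and stayed at 0 with no replicate block. With WT#20D-17 as the wild type, the log2 fold change turned for 14 genes. Called in at least 1 of the 2 fits were Sox1 (4.29), Sox3 (-5.06), Zic2 (0.17), Nes (-0.88), Fabp7 (1.7) and Pax7 (8.03). So were Msx1 (-0.75), Foxd3 (-6.22), Neurod1 (-2.47), Map2 (2.15) and Mapt (1.93). Called in neither were 3, Dlx2 (0.9), Dcx (-2.32) and Gfap (-0.45). Neurog2, listed at 0 in both groups of the first comparison, was -5.02. With both wild type lines the log2 fold change turned for 9 genes, of which Sox3 (-4.08) and Foxd3 (-5.23) were called. The other 7, among them Sox1 (0.3), Nes (-0.26), Pax7 (0.19) and Neurod1 (-1.52), were called in neither fit. On day 14 without WT#20D-17 it turned for Otx2 (5.14) and Zic1 (-1.55). This Otx2 value rests on 6 counts in WT#1-4, 5 in Nox4-/-#5-8 and 0 in Nox4-/-#5-23 on day 14, against 0 counts in each on day 0. The day 14 value of Otx2 was -2.66 without WT#1-4, and that of Zic1 was 0.97 without Nox4-/-#5-8. The cause was not tested. Depth limits statements on genes at or under 3 counts.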

Other observations

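Ngfr, a neurotrophin receptor of crest cells, was between 40.6 and 97.1 CPM in WT#1-4, 60.8 and 165 CPM in Nox4-/-#5-8 and 44.5 and 109 CPM in Nox4-/-#5-23, and between 0.577 and 5.62 CPM in WT#20D-17. It was lower in WT#20D-17 than in WT#1-4 by edgeR's exact test (log2 fold change -4.9, FDR = 2.04e-17). This gene was picked after its values were seen.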
